A study of Mus musculus with 20 samples.

Results

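Fgf21, Gdf15, Stc1, Stc2, Klb and Fgfr1 are 6 of the 28632 genes counted by RNAseq in mouse pancreatic islets. They encode secreted stress hormones (Fgf21 and Gdf15), the stanniocalcins (Stc1 and Stc2) and the receptor pair for FGF21 (Klb and Fgfr1). The 6 genes were chosen by name, with earlier results of these same libraries known. Their levels across genotypes are therefore given below as a description, without printed p-values. All 6 had counts in every one of the 20 libraries.

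The study asked how loss of the mitofusins, the outer mitochondrial membrane GTPases that fuse mitochondria, affects β-cells. Islets came from 12-week-old mice of 4 genotypes, with 6 Ctrl, 4 β-Mfn1KO, 5 β-Mfn2KO and 5 β-Mfn1/2DKO libraries (3, 3, 2 and 2 of them from females), and were kept in culture for 24 hours before RNA was taken. The knockouts carried floxed Mfn1 (exon 4), floxed Mfn2 (exon 6) or both, deleted by Cre expressed from the insulin gene Ins1 in β-cells, on a C57BL/6N background. The controls are labelled wild type, whereas the study describes a pool of Ins1-Cre-only and floxed-only mice. Islets are a mixture of cell types, so fewer cells of a type and less RNA per cell cannot be told apart in these data. The study reports no significant difference in β-cell mass between the genotypes, measured in the pancreas of slightly younger mice.

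FGF21 is a hormone of the FGF19 subfamily that binds little heparan sulfate, circulates, and signals through FGFR1 only where the co-receptor β-Klotho, encoded by Klb, is present. It is made mainly in liver, and also in adipose tissue, muscle and the acinar cells of the exocrine pancreas. GDF15 is a distant member of the TGF-β family that acts on GFRAL and its co-receptor RET in the hindbrain. Both are called mitokines because cells with impaired mitochondria secrete them, and the genes of both are induced by the integrated stress response through ATF4 and CHOP. Stanniocalcins are secreted glycoproteins, first known as calcium-regulating hormones of fish. In mammals they inhibit the metalloproteinases PAPP-A and PAPP-A2, which release insulin-like growth factors from their binding proteins, and Stc2 is itself an ATF4 target.

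Total counts per library ran from 12400687 to 20329064 in Ctrl, from 15745680 to 16685381 in β-Mfn1KO, from 15110046 to 59533407 in β-Mfn2KO, of which 2 libraries exceeded 40000000, and from 65533388 to 122947313 in β-Mfn1/2DKO. Depth and the double knockout therefore cannot be told apart between β-Mfn1/2DKO and Ctrl or β-Mfn1KO. Mfn1 was at 621 to 770 normalized counts in β-Mfn1KO and 687 to 1062 in β-Mfn1/2DKO, against 1518 to 1807 in Ctrl. Mfn2 was at 1474 to 1688 in β-Mfn2KO and 2022 to 2131 in β-Mfn1/2DKO, against 3089 to 4373 in Ctrl. Normalized counts here are counts scaled by the trimmed mean of M-values (TMM) to the mean effective library size. Islet identity was checked on 9 β-cell markers, which summed to 145650 to 233140 CPM (counts scaled to a common library total) in Ctrl and to 64283 to 87328 CPM in β-Mfn1/2DKO, where 8 of the 9 were called lower. In each single knockout 1 of the 9 was called lower. Ins1, the gene that drives the Cre, is among the 9. It averaged 1444210 normalized counts in Ctrl, 817829 in β-Mfn1KO, 753680 in β-Mfn2KO and 238269 in β-Mfn1/2DKO. The part of the Cre allele in the Ins1 values was not tested. Markers of acinar cells, 16 genes such as Cpa1 and Prss2, summed to 424 to 2917 CPM in Ctrl, but to 25613 and 66979 CPM in β-Mfn1/2DKO replicates 4 and 5 and to 11008 CPM in β-Mfn2KO replicate 4. Those 3 libraries stand apart from the rest in exocrine RNA, and values without those of β-Mfn1/2DKO are given beside the results they move most. The part that the lower β-cell markers have in the values below was not tested.

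The promoters of Fgf21, Gdf15 and Stc2 are shown because these genes are known targets of ATF4 and were higher together in β-Mfn1/2DKO islets. Each window runs from 250 bases before to 50 bases after the RefSeq start in GRCm38.p6, 5′ to 3′ on the strand of the gene, and capitals mark any match to TGATGNAA, the core of the composite ATF4-C/EBP site, searched on both strands. The windows are chr7:45615441-45615740 (minus strand) for Fgf21, chr8:70632046-70632345 (minus strand) for the second of the Gdf15 starts, and chr11:31370012-31370311 (minus strand) for Stc2. The second Gdf15 start lies inside the annotated gene, whose 5′ end is at 70632456. The window of the first start, chr8:70632407-70632706, spans that end and is not shown.
Fgf21: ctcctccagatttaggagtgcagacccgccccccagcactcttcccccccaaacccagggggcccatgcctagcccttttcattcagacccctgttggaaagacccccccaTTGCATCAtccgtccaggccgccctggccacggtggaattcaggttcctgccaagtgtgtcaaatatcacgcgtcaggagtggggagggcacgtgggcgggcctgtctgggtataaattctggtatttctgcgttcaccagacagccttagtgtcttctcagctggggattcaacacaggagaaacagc
Gdf15: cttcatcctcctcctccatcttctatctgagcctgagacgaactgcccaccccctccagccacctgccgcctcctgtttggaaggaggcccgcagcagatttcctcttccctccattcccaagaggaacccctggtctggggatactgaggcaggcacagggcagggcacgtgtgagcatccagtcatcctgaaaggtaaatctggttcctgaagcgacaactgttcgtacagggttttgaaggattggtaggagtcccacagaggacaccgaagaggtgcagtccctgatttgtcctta
Stc2: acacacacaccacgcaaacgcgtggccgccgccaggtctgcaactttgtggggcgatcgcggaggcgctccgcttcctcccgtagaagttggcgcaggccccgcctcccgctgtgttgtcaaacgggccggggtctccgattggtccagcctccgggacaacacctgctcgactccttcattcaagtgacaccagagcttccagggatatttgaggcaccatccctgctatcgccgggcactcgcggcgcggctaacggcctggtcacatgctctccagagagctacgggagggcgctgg

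The Fgf21 window held the core on the opposite strand, as TTGCATCA, starting at position -139 relative to the gene's start. It also held the E-box CACGTG at -50 and the short form of the cAMP response element, TGACG, on the opposite strand at -68. The Gdf15 window shown held CACGTG at -83 and no match to TGATGNAA, and the window of the other Gdf15 start held none of these motifs. The Stc2 window held none of them, nor the hypoxia core ACGTG. The Klb window, chr5:65348161-65348460 on the plus strand, held TGACG at -146. Among 32851 RefSeq promoter windows of the same length, TGATGNAA was found in 3.97%, CACGTG in 7.15%, TGACG in 20.8% and ACGTG, which lies within every CACGTG, in 19.6%. A match is only a run of letters and no match speaks to these windows alone. Entries for Stc1 and Fgfr1 were not in the table used here.

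Across the genotypes, β-Mfn1/2DKO islets had more Fgf21, Gdf15, Stc2 and Fgfr1 RNA than Ctrl islets, with no overlap between the libraries of the 2 groups. Stc2 differed most, by 21.2-fold, while Fgfr1 differed by 1.67-fold and Gdf15 by 1.74-fold. Fgf21 differed by 7.47-fold in the fit, but most of that came from 2 of the 5 libraries. Stc1 and Klb overlapped Ctrl. In neither single knockout did any of the 6 genes reach the threshold.

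**Figure D1:**
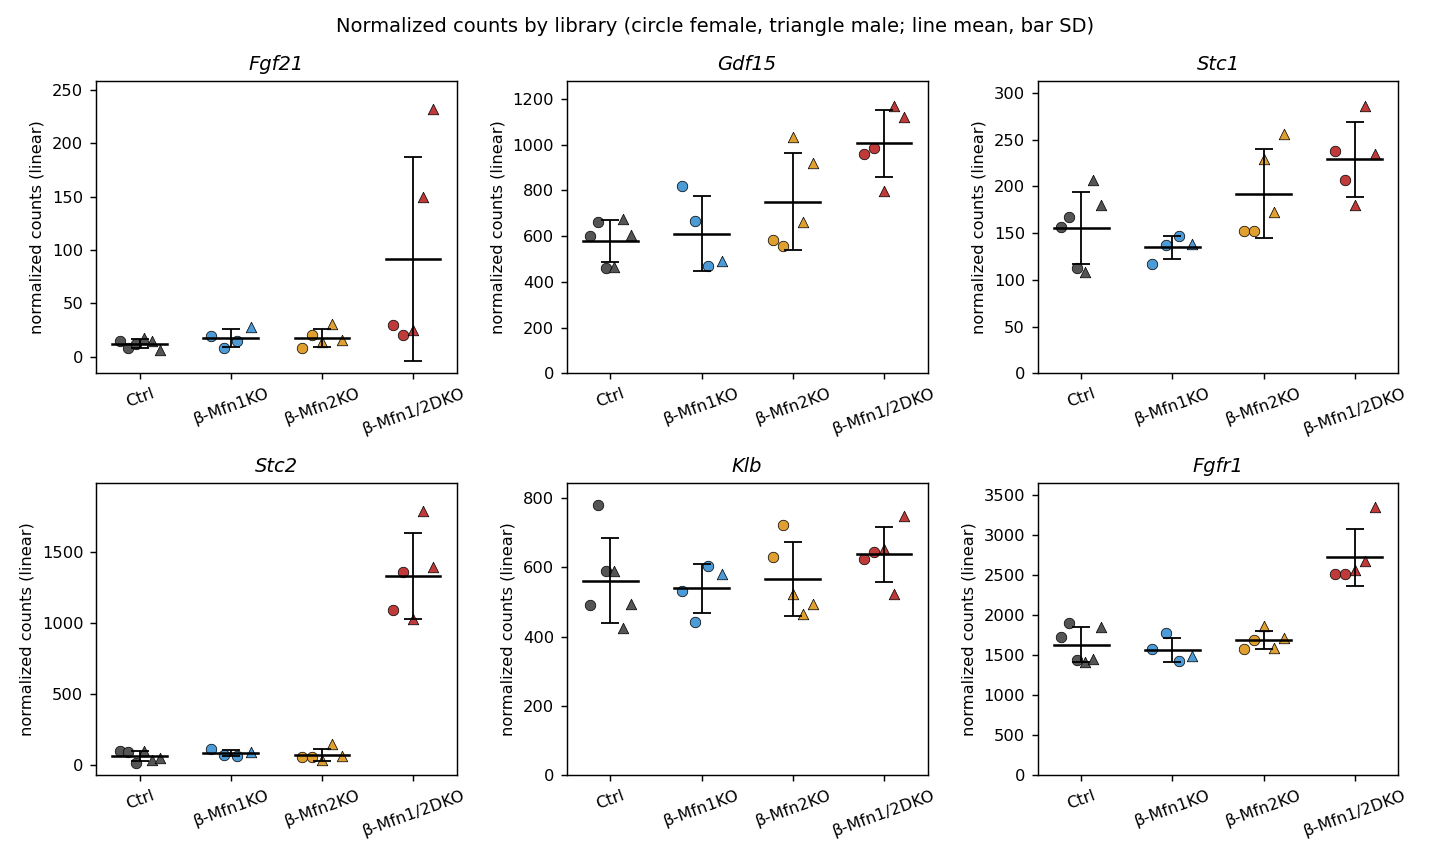
Normalized counts (linear axis, 1 panel per gene, each with its own scale) of the 6 genes in each of the 20 libraries by genotype; circles are females, triangles males, the long line is the group mean and the bar ± 1 SD. The 5 β-Mfn1/2DKO libraries lie above all Ctrl libraries for Fgf21, Gdf15, Stc2 and Fgfr1, and 2 of them, at 149.7 and 231.8, carry the high mean of Fgf21.

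Called here means an adjusted p under 0.05 (edgeR's quasi-likelihood test, Benjamini-Hochberg over all 28632 genes) together with a fold over 1.5. Because the 6 genes were chosen with results of these libraries known, calls among them are a description, here and in the alternatives below. They do not support the choice, and the shares over all genes are given only for scale. Between β-Mfn1/2DKO and Ctrl, 4 of the 6 genes were called, all of them higher, where 5.21% of all genes were called and 3.24% were called higher. The shares over all genes include genes with few counts. A filter for low counts (edgeR's filterByExpr) kept 15214 genes, all 6 among them, of which 1362 were called. The same 4 genes had all β-Mfn1/2DKO libraries above all Ctrl libraries, which 6.56% of all genes did. Between β-Mfn1/2DKO and β-Mfn2KO, 3 were called, all higher (Fgf21, Stc2 and Fgfr1), against 3.84% of all genes called and 2.05% called higher. Against β-Mfn1KO, 5 were called, all higher, with only Klb not, where 6.71% of all genes were called and 4.04% called higher. None was called between β-Mfn2KO and Ctrl, where 0.0524% of all genes were, or between β-Mfn1KO and Ctrl, where 0.0244% were. The 3 comparisons with Ctrl share the same 6 control libraries, and the 3 with β-Mfn1/2DKO share its 5.

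**Figure D2:**
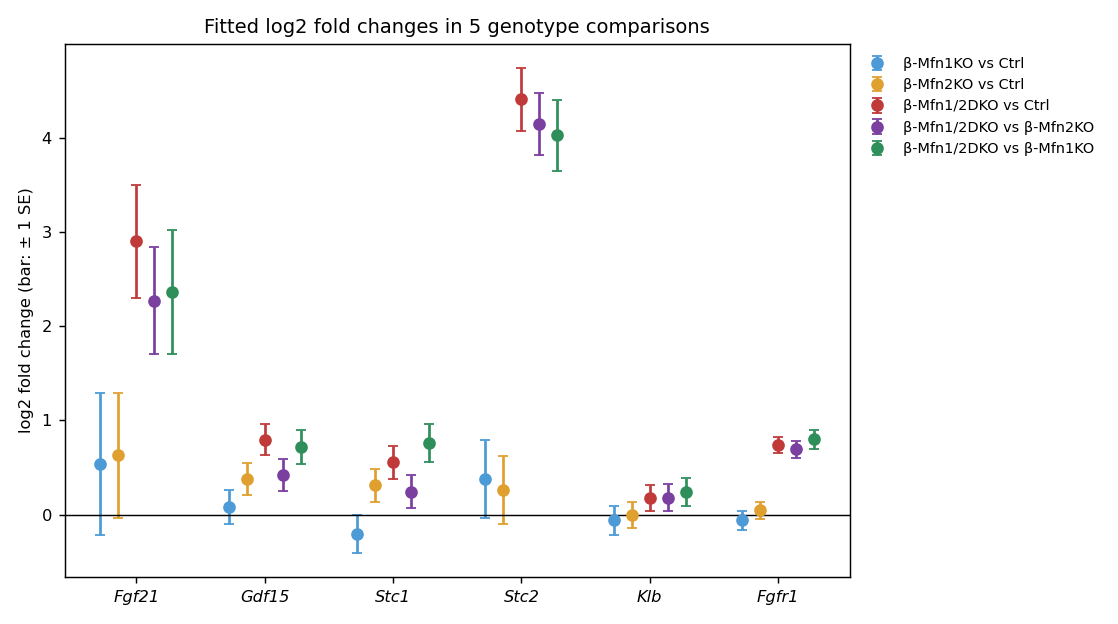
Fitted log2 fold change (vertical axis; bars ± 1 SE) of each gene in the 5 genotype comparisons, which share libraries. Stc2 lies between 4.03 and 4.41 in the 3 comparisons of β-Mfn1/2DKO, while all values of the single knockouts against Ctrl lie between -0.21 and 0.63.

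Stc2, on chromosome 11 (31357307 to 31370074, minus strand, GRCm38; ENSMUSG00000020303), encodes the stanniocalcin that binds PAPP-A covalently. In Ctrl islets it ranged from 15.2 to 95.9 normalized counts with a median of 65.2. The β-Mfn1KO libraries held 112, 68.7, 59.6 and 85.9 normalized counts, and the β-Mfn2KO libraries 53.6, 53.6, 29.6, 146 and 59.4. The β-Mfn1/2DKO libraries held 1088, 1357, 1022, 1783 and 1389. Every double-knockout library was therefore several times above every other library, and the 3 other genotypes overlapped. The means were 61.9 ± 34.9 (SD, n = 6) in Ctrl, 81.5 ± 22.9 (n = 4) in β-Mfn1KO, 68.5 ± 45.0 (n = 5) in β-Mfn2KO and 1328 ± 301 (n = 5) in β-Mfn1/2DKO.

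On the log2 scale, Stc2 in β-Mfn1/2DKO was higher by 4.41 (SE 0.33) than in Ctrl, by 4.15 (SE 0.33) than in β-Mfn2KO and by 4.03 (SE 0.38) than in β-Mfn1KO. The single knockouts differed from Ctrl by 0.38 (SE 0.41) for β-Mfn1KO and 0.26 (SE 0.36) for β-Mfn2KO. Leaving out β-Mfn1/2DKO replicates 4 and 5, which held the most acinar RNA, left a difference from Ctrl of 4.23 (SE 0.35). With a term for libraries above 40000000 counts the difference was 3.25 (SE 0.59), and among those deep libraries alone Stc2 was 3.75 (SE 0.37) higher in the 5 β-Mfn1/2DKO than in the 2 β-Mfn2KO libraries.

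Stc1 (chromosome 14, 69029238 to 69041804, plus strand, GRCm38; ENSMUSG00000014813) encodes the paralog of STC2, a local regulator of calcium and phosphate transport that is induced by hypoxia. It ranged from 109 to 207 normalized counts in Ctrl, with a median of 162. The β-Mfn1KO libraries were at 117, 138, 147 and 139 and the β-Mfn2KO libraries at 152, 152, 229, 172 and 256 normalized counts. The β-Mfn1/2DKO libraries were at 238, 207, 180, 286 and 234. All genotypes overlapped Ctrl, but the double knockouts lay above all β-Mfn1KO libraries. Stc1 in β-Mfn1/2DKO was 0.55 (SE 0.17) above Ctrl on the log2 scale, 1.47-fold and so under the fold threshold (0.44, SE 0.19, without replicates 4 and 5), 0.24 (SE 0.18) above β-Mfn2KO and 0.76 (SE 0.20) above β-Mfn1KO. Against Ctrl, β-Mfn2KO differed by 0.31 (SE 0.18) and β-Mfn1KO by -0.21 (SE 0.20). The 6 endothelial markers summed to 125 to 190 CPM in Ctrl and 181 to 285 CPM in β-Mfn1/2DKO, with 3 of them called higher and none at 0 in any library. Their part in the Stc1 values was not tested.

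Fgf21 (chromosome 7, 45613886 to 45615490, minus strand, GRCm38; ENSMUSG00000030827) was the least counted of the 6 genes. It ranged from 6.23 to 17.5 normalized counts in Ctrl, with a median of 13.3. The β-Mfn1KO libraries were at 19.5, 8.25, 14.9 and 27.7 normalized counts and the β-Mfn2KO libraries at 8.46, 20.1, 13.5, 31.1 and 15.2. The β-Mfn1/2DKO libraries were at 29.8, 20.7, 25.05, 149.7 and 231.8. Replicates 1 to 3 of β-Mfn1/2DKO thus lay just above the Ctrl range and within that of β-Mfn2KO, and replicates 4 and 5 far above all others. In raw counts the Ctrl libraries held only 2 to 5 each, so that the 95% Poisson interval of the lowest ran from 0.753 to 22.5 normalized counts and that of the highest from 5.69 to 40.9, while β-Mfn1/2DKO replicate 4 had 382 counts and replicate 5 had 372. These intervals cover counting error only.

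The mean of Fgf21 was 12.2 ± 4.22 (SD, n = 6) in Ctrl, 17.6 ± 8.18 (n = 4) in β-Mfn1KO, 17.7 ± 8.58 (n = 5) in β-Mfn2KO and 91.4 ± 95.2 (n = 5) in β-Mfn1/2DKO. On the log2 scale β-Mfn1/2DKO was 2.90 (SE 0.60) above Ctrl, 2.27 (SE 0.57) above β-Mfn2KO and 2.36 (SE 0.66) above β-Mfn1KO. The mean of replicates 1 to 3 was 2.06-fold that of Ctrl and the mean of replicates 4 and 5 was 15.6-fold. Without replicates 4 and 5 the log2 difference from Ctrl was 1.08 (SE 0.39) and was not called, that from β-Mfn2KO was 0.45 (SE 0.37) and that from β-Mfn1KO was 0.55 (SE 0.42). With a term for depth the difference from Ctrl was 2.22 (SE 1.13) and not called. In the single knockouts Fgf21 differed from Ctrl by 0.54 (SE 0.76) in β-Mfn1KO and 0.63 (SE 0.66) in β-Mfn2KO.

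The 2 libraries with the most Fgf21 were the 2 with the most acinar RNA, and β-Mfn2KO replicate 4, with the highest Fgf21 of its group, had the next highest acinar sum. That library held 31.1 normalized counts of Fgf21 at an acinar sum of 11008 CPM, whereas β-Mfn1/2DKO replicate 1 held 29.8 at 666 CPM. Whether acinar cells made the Fgf21 RNA was not tested. All 16 acinar markers had counts in every library, and all 16 were called higher in β-Mfn1/2DKO than in Ctrl. In β-Mfn1/2DKO replicates 1 to 3 the acinar sums were 666, 1121 and 673 CPM, within the Ctrl range. In a fit with the mean log2 CPM of the acinar markers as a covariate, Fgf21 was 1.55 (SE 0.32) above Ctrl and called, 1.31 (SE 0.29) above β-Mfn2KO and called, and 0.33 (SE 0.38) above β-Mfn1KO and not called.

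**Figure D3:**
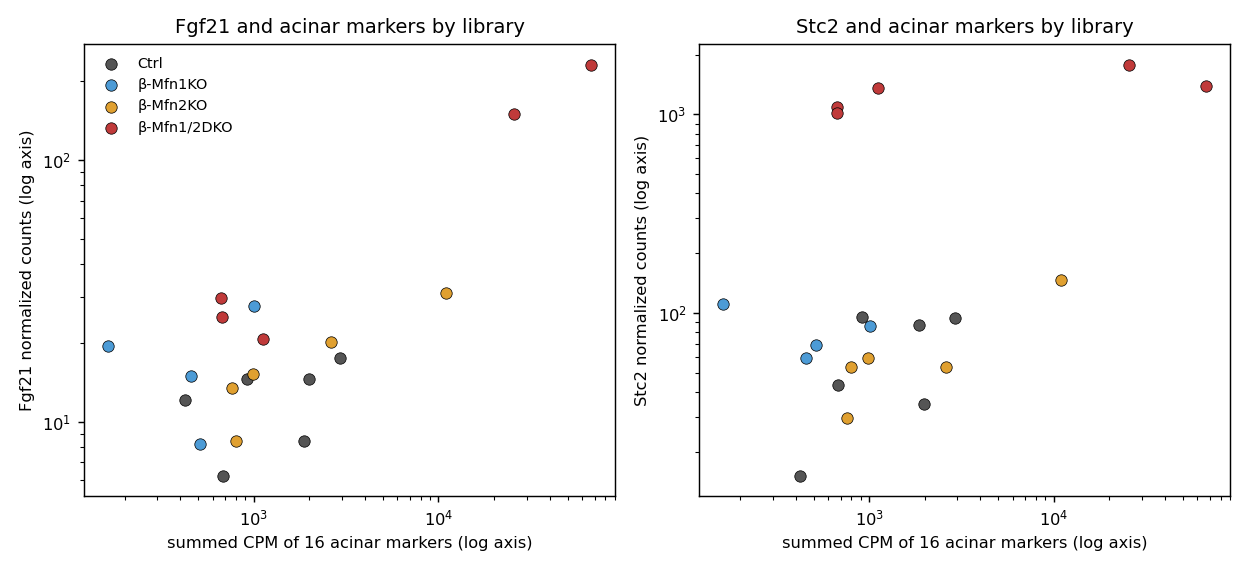
Normalized counts of Fgf21 (left) and Stc2 (right) against the summed CPM of 16 acinar markers in each library (both axes logarithmic, 1 point per library, colours for genotype). The 2 β-Mfn1/2DKO libraries with sums of 25613 and 66979 CPM hold the highest Fgf21, whereas all 5 β-Mfn1/2DKO libraries are high in Stc2, from 1022 to 1783.

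Gdf15 (chromosome 8, 70629393 to 70632456, minus strand, GRCm38; ENSMUSG00000038508) ranged from 462 to 673 normalized counts in Ctrl, with a median of 603. The β-Mfn1KO libraries were at 821, 665, 469 and 491 normalized counts. The β-Mfn2KO libraries were at 584, 556, 1034, 663 and 918, and the β-Mfn1/2DKO libraries at 961, 984, 799, 1170 and 1119. The double knockouts lay above all Ctrl libraries but overlapped both single knockouts, and 2 of the 5 β-Mfn2KO libraries lay within the range of the double knockouts. Gdf15 in β-Mfn1/2DKO was 0.80 (SE 0.16) above Ctrl on the log2 scale, 0.42 (SE 0.17) above β-Mfn2KO and 0.72 (SE 0.18) above β-Mfn1KO. Against Ctrl, β-Mfn2KO differed by 0.38 (SE 0.17) and β-Mfn1KO by 0.08 (SE 0.18). Without β-Mfn1/2DKO replicates 4 and 5 the difference from Ctrl was 0.68 (SE 0.18) and still called, and with a term for depth it was 0.67 (SE 0.30) and not called.

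Fgfr1 (chromosome 8, 25513654 to 25575718, plus strand, GRCm38; ENSMUSG00000031565), the receptor tyrosine kinase through which FGF21 signals, ranged from 1417 to 1900 normalized counts in Ctrl, with a median of 1586. It stood at 1574, 1773, 1418 and 1483 normalized counts in β-Mfn1KO and at 1574, 1691, 1860, 1583 and 1716 in β-Mfn2KO. In β-Mfn1/2DKO it stood at 2505, 2514, 2563, 2676 and 3345. The double-knockout libraries were above those of all 3 other genotypes, which lay on top of each other. The log2 difference of β-Mfn1/2DKO was 0.74 (SE 0.09) from Ctrl, 0.69 (SE 0.09) from β-Mfn2KO and 0.80 (SE 0.10) from β-Mfn1KO. The single knockouts differed from Ctrl by -0.06 (SE 0.10) for β-Mfn1KO and 0.05 (SE 0.09) for β-Mfn2KO. Without β-Mfn1/2DKO replicates 4 and 5 the difference from Ctrl was 0.65 (SE 0.09), and with a term for depth it was 0.79 (SE 0.16).

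Klb (chromosome 5, 65348314 to 65384007, plus strand, GRCm38; ENSMUSG00000029195), the co-receptor that makes FGFR1 responsive to FGF21, did not follow Fgfr1. It ranged from 426 to 778 normalized counts in Ctrl, with a median of 542. It was at 530, 443, 603 and 579 in β-Mfn1KO, at 629, 721, 522, 464 and 493 in β-Mfn2KO and at 623, 643, 653, 523 and 746 in β-Mfn1/2DKO. The 4 genotypes overlapped throughout. The log2 difference from Ctrl was 0.18 (SE 0.14) in β-Mfn1/2DKO, -0.06 (SE 0.15) in β-Mfn1KO and -0.003 (SE 0.14) in β-Mfn2KO. With a term for depth the first of these was 0.56 (SE 0.23), again not called.

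Levels of different genes can be set side by side only per length, here as mean normalized counts per kilobase of merged annotated exons, a rough scale for a gene with many transcripts such as Fgfr1. In Ctrl islets the order was Gdf15 at 312, Fgfr1 at 165, Klb at 123.4, Stc1 at 37.0, Fgf21 at 12.9 and Stc2 at 12.0 per kilobase. Fgf21 and Stc2, next to each other in that order, had means closer than the spread of either. In β-Mfn1/2DKO islets the order was Gdf15 at 543, Fgfr1 at 275, Stc2 at 257, Klb at 140, Fgf21 at 96.1 and Stc1 at 54.5. Stc2 thus stood last of the 6 genes in Ctrl and close to Fgfr1 in the double knockout, and the place of Fgf21 rested on the 2 libraries named above.

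Sex was not used to choose the genes, so the 10 male libraries were compared with the 10 female ones in a fit with genotype and sex. None of the 6 genes was called, where 0.0559% of all genes were; DESeq2 called none of them either. Fgf21 had the largest difference of the 6, with males 1.27 (SE 0.44) above females on the log2 scale, an unadjusted p of 0.0082 and an edgeR adjusted p of 0.30. The direction turned, to -0.94, in a fit with the replicate number as a block, where nearly every number belongs to a single sex. The β-Mfn1/2DKO females averaged 25.3 normalized counts of Fgf21 and the males 135.5, of which replicate 3 was at 25.05 and replicates 4 and 5 were those rich in acinar RNA. Ctrl females averaged 11.7 and Ctrl males 12.8. The log2 difference between β-Mfn1/2DKO and Ctrl was 2.26 (SE 1.03) larger in males than in females, with an edgeR adjusted p of 0.97. For the other 5 genes the male minus female log2 difference lay between -0.19 for Klb and 0.22 for Stc1, with edgeR adjusted p-values from 0.52 to 0.95.

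Genes around the 6 were taken from 11 lists of receptors, signalling proteins, related ligands, partners and regulators, drawn up with earlier results of these libraries known. Of 134 listed genes 130 were counted; Gfral, Lctl, Fgf10 and Fgf20 were not in the table. In β-Mfn1/2DKO against Ctrl 14 rose and 5 fell, which here and below means called higher and called lower. That is 14.6% of the 130, where 5.21% of all genes were called. Of all genes 3.24% were called higher, and these shares stand beside the count of each list below. The median log2 fold change of the 130 was 0.11, beside 0.06 over all genes. Against β-Mfn2KO 16 rose and 2 fell (13.8%), where 3.84% of all genes were called. Against β-Mfn1KO 15 rose and 4 fell (14.6%), where 6.71% of all genes were called. Without β-Mfn1/2DKO replicates 4 and 5, 14 were called higher and 4 lower against Ctrl. With a term for depth, 5 were called higher and 2 lower, where 481 of all 28632 genes were called. Igfbp5, Ddit3, Trib3, Cebpb, Sesn2 and Ankrd37 were among the listed genes called with that term. The other genes named below as called against Ctrl were not called with it. None was called in β-Mfn2KO or β-Mfn1KO against Ctrl by edgeR or DESeq2. At an unadjusted edgeR p under 0.05 were 10 and 6 of the 130, where 1208 and 2130 of all 28632 genes were.

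Among the receptors, Fgfrl1, a decoy-like FGF receptor without a kinase domain, was the only one of 5 called, higher in β-Mfn1/2DKO by 1.01 (SE 0.35, edgeR adjusted p = 0.049). Its libraries overlapped those of Ctrl, and without replicates 4 and 5 the difference was 0.03. Fgfr2, Fgfr3 and Fgfr4, the other FGF receptor kinases, averaged 39.3, 41.9 and 45.3 normalized counts in Ctrl, and differed in β-Mfn1/2DKO by -0.67 (SE 0.43), 0.15 (SE 0.29) and 0.42 (SE 0.23) on the log2 scale, with edgeR adjusted p-values of 0.36, 0.78 and 0.26. Kl, the co-receptor for FGF23, averaged 1008 normalized counts in Ctrl and 1208 in β-Mfn1/2DKO, a log2 difference of 0.26 (SE 0.09, edgeR adjusted p = 0.042) that was under the fold threshold. Of 11 genes that carry the FGF signal inside the cell, such as Frs2 and Grb2, none was called, with a median log2 fold change of -0.01. Under the fold threshold, Ptpn11 differed by -0.32 (SE 0.06, edgeR adjusted p = 0.00081) and Frs3 by 0.47 (SE 0.13, edgeR adjusted p = 0.014), both without overlap with Ctrl. Of 10 FGF feedback inhibitors and targets, Spry1 alone was called, higher by 0.65 (SE 0.20, edgeR adjusted p = 0.031), and by 0.50, not called, without replicates 4 and 5. None of the 8 other FGF ligands counted was called.

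On the GDF15 side, Ret averaged 6848 normalized counts in Ctrl and 7258 in β-Mfn1/2DKO, a log2 difference of 0.08 (SE 0.09, edgeR adjusted p = 0.61). Of the 11 receptor and TGF-β family genes counted only Inhbb, the activin βB subunit, was called, higher by 1.01 (SE 0.20, edgeR adjusted p = 0.00083), and by 0.74, still called, without replicates 4 and 5. With a term for depth Inhbb was not called.

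Of 10 other stress-induced secreted peptides, 2 rose and 3 fell. Adm2, a peptide of the calcitonin family, rose by 1.15 (SE 0.26, edgeR adjusted p = 0.0031) and Angptl6 by 0.96 (SE 0.21, edgeR adjusted p = 0.0020). The 3 that fell are luminal proteins of the endoplasmic reticulum, induced in its unfolded protein response. Manf fell by 0.86 (SE 0.16, edgeR adjusted p = 0.00052), Creld2 fell by 0.69 (SE 0.14, edgeR adjusted p = 0.00092) and Sdf2l1 fell by 1.25 (SE 0.21, edgeR adjusted p = 0.00023). Neither these 3 nor Adm2 and Angptl6 were called with a term for depth.

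Among the partners of the stanniocalcins, Igfbp5, an IGF-binding protein cleaved by PAPP-A and PAPP-A2, rose from 4315 ± 1102 (SD, n = 6) normalized counts in Ctrl to 10141 ± 1386 (n = 5) in β-Mfn1/2DKO. The log2 difference was 1.23 (SE 0.17, edgeR adjusted p = 2.1e-05), with no overlap between the groups. Igf2 fell by 0.84 (SE 0.26, edgeR adjusted p = 0.026), and differed by -0.61, not called, without replicates 4 and 5. The other 9 of the 11 genes were not called. Pappa2, the more abundant target of the stanniocalcins at 6629 normalized counts in Ctrl, differed by -0.29 (SE 0.14, edgeR adjusted p = 0.20). Pappa, at 27.1 normalized counts in Ctrl, differed by -0.66 (SE 0.53, edgeR adjusted p = 0.48) and Igfbp4, the main PAPP-A substrate, by -0.53 (SE 0.72, edgeR adjusted p = 0.68).

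Of the 16 listed sensors and factors of the integrated stress response, 5 rose and none fell, where 3.24% of all genes were called higher. Nupr1, a small chromatin protein induced by stress, rose by 3.20 (SE 0.55, edgeR adjusted p = 0.00024), and by 1.71 without replicates 4 and 5. Ddit3, which encodes CHOP, rose by 1.95 (SE 0.29, edgeR adjusted p = 4.2e-05), Trib3, a pseudokinase induced by CHOP, by 1.94 (SE 0.23, edgeR adjusted p = 2.9e-06) and Atf3 by 1.83 (SE 0.31, edgeR adjusted p = 0.00018). Without replicates 4 and 5 Atf3 was higher by 1.17, still called, and with a term for depth neither Nupr1 nor Atf3 was called. The last of the 5, Cebpb, rose by 0.78 (SE 0.15, edgeR adjusted p = 0.00085). It is named because it completes the count, after its value was seen. The RNA of Atf4, which is controlled largely by translation, averaged 16323 normalized counts in Ctrl and 17166 in β-Mfn1/2DKO, a log2 difference of 0.07 (SE 0.10, edgeR adjusted p = 0.67).

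Of 22 other ATF4 targets, mostly enzymes and transporters of amino acids, 2 were called, both higher. Under the fold threshold, but at an edgeR adjusted p under 0.05, Vldlr (0.56), Slc7a5 (0.39) and Slc3a2 (0.37) were higher and Shmt2 (-0.43) was lower. Sesn2, a leucine sensor that restrains mTORC1, rose by 0.86 (SE 0.08, edgeR adjusted p = 9.1e-08) and Slc7a3, a cationic amino acid transporter, by 1.52 (SE 0.29, edgeR adjusted p = 0.00069). Slc7a3 was not called with a term for depth, whereas Sesn2 was. The median over the 22 genes was 0.07. Of 14 hypoxia targets Adm, which encodes adrenomedullin, rose by 2.64 (SE 0.51, edgeR adjusted p = 0.00083) and Ankrd37 fell by 0.81 (SE 0.16, edgeR adjusted p = 0.0012). Adm was not called with a term for depth, whereas Ankrd37 was. None of 12 other transcription factors reported to act on these genes was called.

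**Figure D4:**
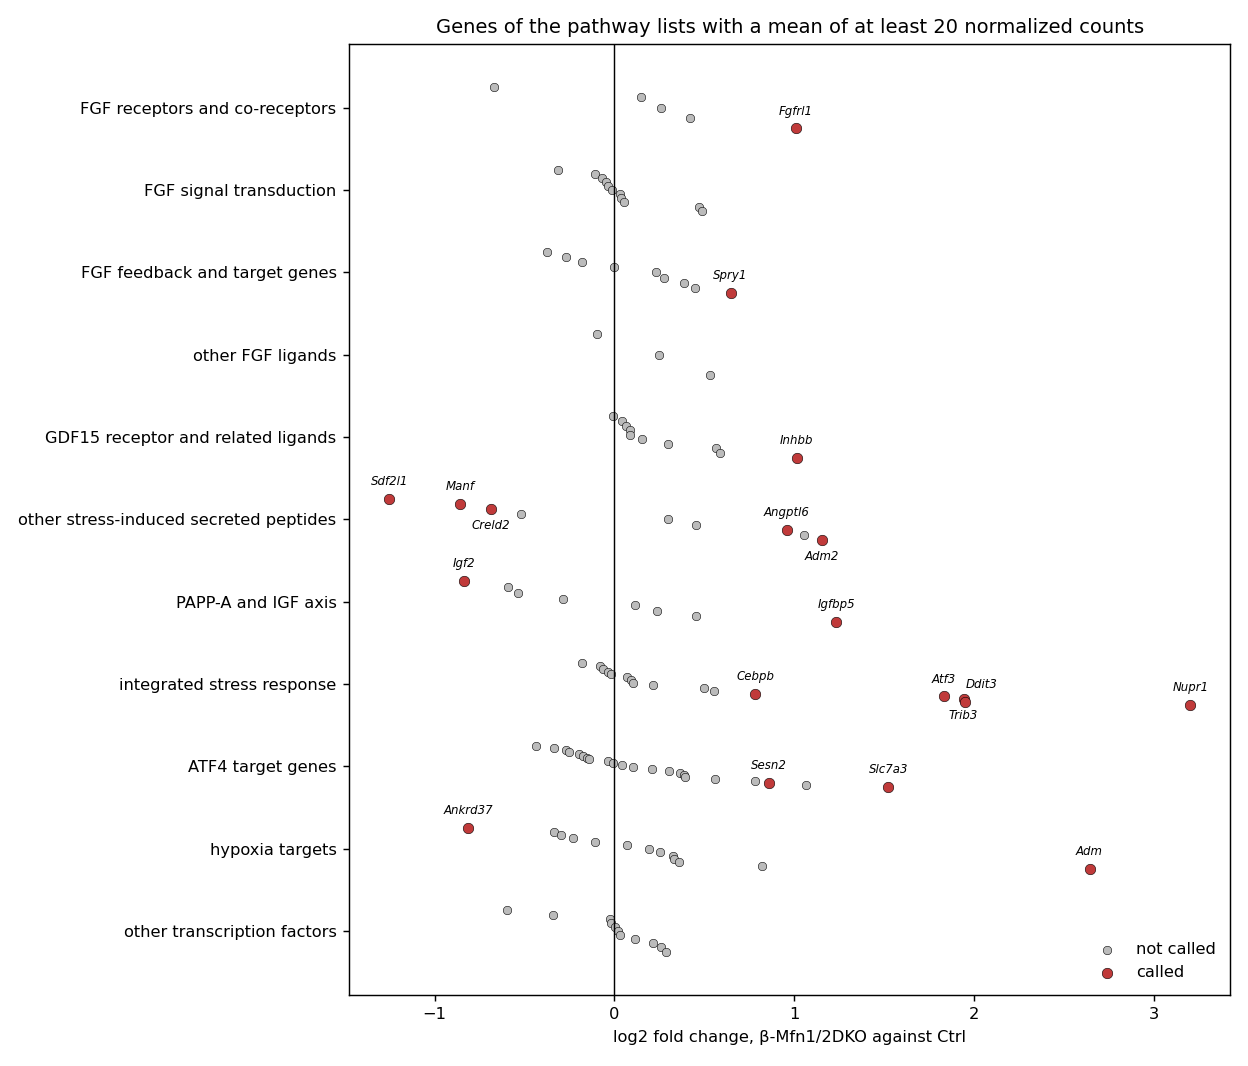
Log2 fold change, β-Mfn1/2DKO against Ctrl (horizontal axis), of the listed genes that averaged 20 or more normalized counts, 1 row of points per list; red points were called and are named, grey points were not. The red points to the right are the 14 that rose, with Nupr1 at 3.20, and those to the left the 5 that fell.

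For each of the 6 genes, the 3 genes whose log2 normalized counts (plus 1) followed it most closely were sought among 12259 genes averaging 100 or more, over the 20 libraries. The libraries share genotype, depth and cell makeup, so these correlations are a description. Stc2 was followed most closely by Gpt2 (Pearson r = 0.955), C9orf72 (0.947) and Fut1 (0.944). Gpt2, a mitochondrial alanine aminotransferase, averaged 1294 normalized counts in Ctrl and 4751 in β-Mfn1/2DKO, with 1352 and 1275 in β-Mfn1KO and β-Mfn2KO. For Fgfr1 the closest were Zfp217 (0.950), Unc5b (0.938) and Nadk (0.934), of which Unc5b, a netrin receptor, averaged 992 in Ctrl and 3064 in β-Mfn1/2DKO.

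For Fgf21 they were Pkp3 (0.913), St14 (0.908) and Ethe1 (0.908). Pkp3, a plakophilin, and St14, a membrane serine protease, are epithelial genes. Gdf15 was followed by Glce (0.900), Lmo4 (0.893) and Fam129a (0.883), and Stc1 by Jcad (0.904), an endothelial junction gene, St8sia4 (0.893) and Slc43a3 (0.887). Among the closest to Klb were Khsrp (0.859) and Inip (0.848), whose group means moved little, as did those of Klb itself.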

How the data were processed

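Islet RNA was sequenced by RNAseq as paired reads on a NovaSeq-6000. The authors trimmed reads (cutadapt 2.3), checked them (FastQC 0.11.8), aligned them to GRCm38 with STAR 2.6.1b and estimated expected counts per gene with RSEM 1.3.1, per the submitters' processing notes and the study's methods. The deposited expected counts are whole numbers, and genes at 0 in all samples were removed. A second deposited file holds a depth-normalized signal per gene, made by the authors with DESeq2 1.26.0. It was used only as an alternative scale. Whether strand was used in counting is not given in the sources used here. Stc1 and Fgfr1 overlap the antisense genes Gm41192 and Gm16159, which had means of 0 and 0.1 counts.

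Tests on the expected counts used the quasi-likelihood method of edgeR 4.0.16 (R 4.3.3; TMM scaling, 1 coefficient per group, all 20 libraries, all 28632 genes, Benjamini-Hochberg adjustment over all of them). SE is the absolute log2 fold change over the square root of F. The edgeR and DESeq2 fits for β-Mfn1/2DKO against Ctrl and for sex were tested on simulated data; the fits with other covariates were not. The 6 genes, the lists and the tests were chosen with earlier results of these data known. The named genes of a list are those called in β-Mfn1/2DKO against Ctrl that average 20 or more normalized counts, at most the 4 largest in each direction, plus 12 fixed genes of the receptor, PAPP-A and stress response lists. Genes named as under the fold threshold among the FGF signal and ATF4 target genes were added after their values were seen. Symbols came from a reference table of gene names, with 71 genes left without one, coordinates and exon lengths from GENCODE M21, and promoters from RefSeq. One gene among those most like Klb is not reported here. DESeq2 1.42.0, other scalings, filters and covariates, the replicate number as a block, and leaving out libraries were the alternatives.

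Library totals of 12400687 to 122947313 counts set the precision, which is lowest for Fgf21 (2 to 5 counts per Ctrl library) and Stc2 (5 to 41). Poisson intervals are exact at the 95% level. The study gives the number of libraries of each group as a number of mice; the labels do not name the mice. Samples were grouped by genotype from the labels, none was left out, and the authors' own comparisons were not used.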

Additional observations from a re-analysis of the deposited data

Results flagged for a closer look

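Among 24 groups of values (each of the 6 genes in each of the 4 genotypes), 2 had a library far from the others of its group, by a gap to the nearest library that exceeded Dixon's 95% critical value. Chance alone gives about 1 in 20.

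Stc2 in β-Mfn2KO was at 146 normalized counts in replicate 4, whereas the other 4 libraries were between 29.6 and 59.4. The gap was 0.744 of the range of the group. This library also had the highest sum of acinar markers of its group, 11008 CPM, and the highest Fgf21, 31.1 normalized counts. The part of the exocrine RNA in the Stc2 value was not tested. Fgfr1 in β-Mfn1/2DKO was at 3345 normalized counts in replicate 5, and the other 4 libraries lay between 2505 and 2676. The gap was 0.796 of the range. Replicate 5 also had the highest acinar sum of all 20 libraries, 66979 CPM, whose part was not tested. Without β-Mfn1/2DKO replicates 4 and 5 Fgfr1 was still called against Ctrl, at a log2 difference of 0.65.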

How the results depend on the processing

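Over 12 alternatives, Stc2 was 3.25 to 4.55 and Fgfr1 0.65 to 0.87 higher on the log2 scale in β-Mfn1/2DKO than in Ctrl, and both were called in all 11 alternatives with a test. Gdf15 (0.67 to 0.93) was called in 10 of 11 and Fgf21 (1.08 to 3.01) in 9. Stc1 was called in 3 and in 4 of the 20 fits that left out 1 library, and Klb in none. Of 1140 values of the 6 genes, 14 moved by more than the spread between replicates, taken as the largest SD within a group compared. That spread is wide for Fgf21 in β-Mfn1/2DKO. Each gene and comparison had 20 values that left out 1 library and 9 to 13 others, and all 14 were among the others. No called value changed sign. Uncalled values did. Fgf21 in males against females was -0.94 with the replicate block.

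A term for libraries above 40000000 counts left 2 of the 6 genes called against Ctrl (of 4), 2 against β-Mfn2KO (of 3) and 2 against β-Mfn1KO (of 5), Stc2 and Fgfr1 in each. Against β-Mfn2KO, Fgf21 was also not called among the deep libraries alone or without β-Mfn1/2DKO replicates 4 and 5. With that term 7 listed genes were called against Ctrl, 6 of them among the 19 called without it, and 481 of all genes (1491 without it). Against β-Mfn2KO 9 listed genes (18 without it) and 763 of all genes (1099 without it) were called. Against β-Mfn1KO 10 listed genes (19 without it) and 736 of all genes (1921 without it) were called. The term rests on 2 deep libraries, β-Mfn2KO replicates 4 and 5, which differ from their group in cell makeup. Replicate 4 had an acinar sum of 11008 CPM. Replicate 5 had macrophage and lymphocyte markers at 711 CPM and stromal markers at 325 CPM, where the group medians were 42.9 and 38.3 CPM. The part of that RNA in the values with the term was not tested. The acinar covariate left 3 of the 6 genes, and 1355 of all genes, called against β-Mfn1KO. Leaving out β-Mfn1/2DKO replicates 4 and 5 gave 956 genes and 3 of the 6 against Ctrl. Scaling by total counts called 31 listed genes and 2447 of all genes against β-Mfn1KO. In β-Mfn1/2DKO against Ctrl it moved the median of all genes from 0.06 to 0.19 and the share of calls that were higher from 62.2% to 79.6%, whereas the listed genes split 24 higher and 3 lower. With DESeq2 size factors in edgeR the share was 56.5%. DESeq2 called 2 listed genes and 46 of all genes in males against females, where edgeR called 0 and 16. At an unadjusted edgeR p under 0.05 were 36 of the 130 listed genes, where 3045 of all 28632 genes were.

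Leaving out each library in turn gave 4 to 5 of the 6 genes against Ctrl, 4 to 5 against β-Mfn1KO and 3 against β-Mfn2KO. For the listed genes it gave 17 to 22, 16 to 22 and 13 to 20, and 0 to 1 in males against females. Of all genes it called 1161 to 1632, 1560 to 2017 and 877 to 1164, and 11 to 67 in males against females. Deviations from the group means correlated at a mean r of 0.253 between same-numbered libraries (-0.094 to 0.58, 21 of 27 pairs over 0.1) and of -0.056 between others. The numbers largely follow sex, and within a sex the means were 0.299 and 0.187. Of 19 libraries with a partner, 10 correlated best with their own number. Not every pair passed 0.1 and no label ties the numbers together, so pairing was not used. A fit with the replicate number as a block called 5 of the 6 genes, Stc1 being the one gained, and 1548 of all genes against Ctrl. Depth limits Fgf21 most, at 2 to 5 counts per Ctrl library, and then Stc2, at 5 to 41.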
